A study of Mus musculus with 8 samples.

Results

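A set of 10 genes of TNF receptor signalling and cell death, whose products form the complexes on which the ubiquitin-editing enzyme A20 acts, was followed in single microglia of the mouse lumbar spinal cord. The members were the receptors Tnfrsf1a and Tnfrsf1b, the adaptors Traf1, Traf2 and Traf6, the kinases Ripk1 and Ripk3, the protease gene Casp8 and the ubiquitin ligase genes Birc2 and Birc3. They were chosen by symbol, and all 10 were found among the gene identifiers of the deposited matrices. The 8 libraries were 10x Genomics 3′ single-cell libraries of YFP (+) cells sorted from C57BL/6 mice. Such libraries tag RNA with the barcode of its cell and with a unique molecular identifier (UMI), which is counted. Control mice were Cx3cr1-creER-yfp/+; +/+, and A20 cKO mice were Cx3cr1-creER-yfp/+; Tnfaip3 fl/fl, so that animals of both genotypes carried a tamoxifen-inducible Cre and YFP at 1 Cx3cr1 allele. Each genotype had 4 libraries, of naive animals and of animals taken 1, 2 or 3 days after transection of both sciatic nerves. The animals were young adults, tamoxifen was given for recombination, and the cords of 3 animals were pooled per library. Whether the controls of these libraries received tamoxifen is not stated separately in the sources used here. Cre expression follows Cx3cr1, so recombination is not limited to microglia, and the 3′ tags of Tnfaip3, which encodes A20, need not lie in the deleted part and do not check the deletion.

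TNF binds 2 receptors, of which TNFR1 assembles TRADD, TRAF2, the cellular inhibitor of apoptosis proteins cIAP1 and cIAP2, and the kinase RIPK1 at the membrane. Ubiquitin chains built there by the cIAPs and by LUBAC lead to NF-kB activation and survival, and A20 edits or covers such chains. When the chains are lost, RIPK1 moves to a cytosolic complex with FADD and caspase-8, which cleaves its targets in apoptosis, or with RIPK3, which drives necroptosis. Microglia, the macrophages that reside in brain and spinal cord, both make TNF and respond to it.

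The groups were 1 library each, so pairs of libraries were compared without a test, and p-values come only from fits that use several libraries. Such p-values measure the spread between these libraries. Of 14883 barcodes, 14626 cells were kept, with 558 to 3585 cells and 1620481 to 15817426 UMIs per library. Median depth was 2780 to 4274 UMIs per cell. P2ry12, a purinergic receptor gene that marks microglia, was found in 90.1% to 100% of the cells of each library. The 4 A20 cKO libraries and control day 3, named the linked libraries here, shared 256 barcodes in 10 pairs where 45.6 were expected at the median rate of all pairs, whereas 15 pairs between them and the other 3 libraries shared 98 where 130 were expected. The summed markers of other cells moved with this split: the 4 neutrophil markers were at 0 CPM in the other 3 libraries and at 20.1 to 35.0 CPM in the linked ones, the 4 monocyte markers at 1.85 to 3.70 and 25.0 to 85.0 CPM, and the 5 oligodendrocyte markers at 60.1 to 83.3 and 149 to 202 CPM. The 8 microglial markers summed to 19957 to 24672 CPM in the other 3 and 11892 to 18936 CPM in the linked libraries. The part of these differences in the results below was not tested except where a value is given. Genotype and split cannot be told apart except on day 3, when both libraries are linked.

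The members that separated the genotypes were Traf1 and Birc3, which were higher in every A20 cKO library than in any control library. The same held for 5.19% of genes with at least 100 UMIs in all libraries together. Traf1 narrowly met that minimum, mostly through its UMIs in A20 cKO. Traf1 rose by 3.39 on the log2 scale (SE 0.59, adjusted p = 0.0225, edgeR quasi-likelihood test over 4 time points), and Birc3 was higher by 0.69 (SE 0.18, adjusted p = 0.0628), which missed the threshold of 0.05. Levels of the death genes Casp8 and Ripk3 and of the receptors stayed within 2-fold between genotypes at every time at which they had enough counts. After injury of control animals, Birc2 and Traf6 were over 2-fold lower and Ripk3 over 2-fold higher on days 1 and 2 than in the naive library. Of all genes read in these pairs, 7.25% and 6.28% were at least 2-fold lower on days 1 and 2, and 3.82% and 5.92% higher. Both days share the naive library, in which Ripk3 had only 2 UMIs. On these days Ripk3 met the minimum of 100 UMIs only through the injured libraries, and on day 3 it fell under that minimum and was not read. No member differed by 2-fold from A20 cKO naive after injury of A20 cKO animals, among members with at least 100 UMIs in both libraries together. Levels are given as CPM, the UMIs of the gene per 1000000 UMIs of the library, and ranges after them are exact Poisson 95% intervals, which cover counting error only.

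**Figure D1:**
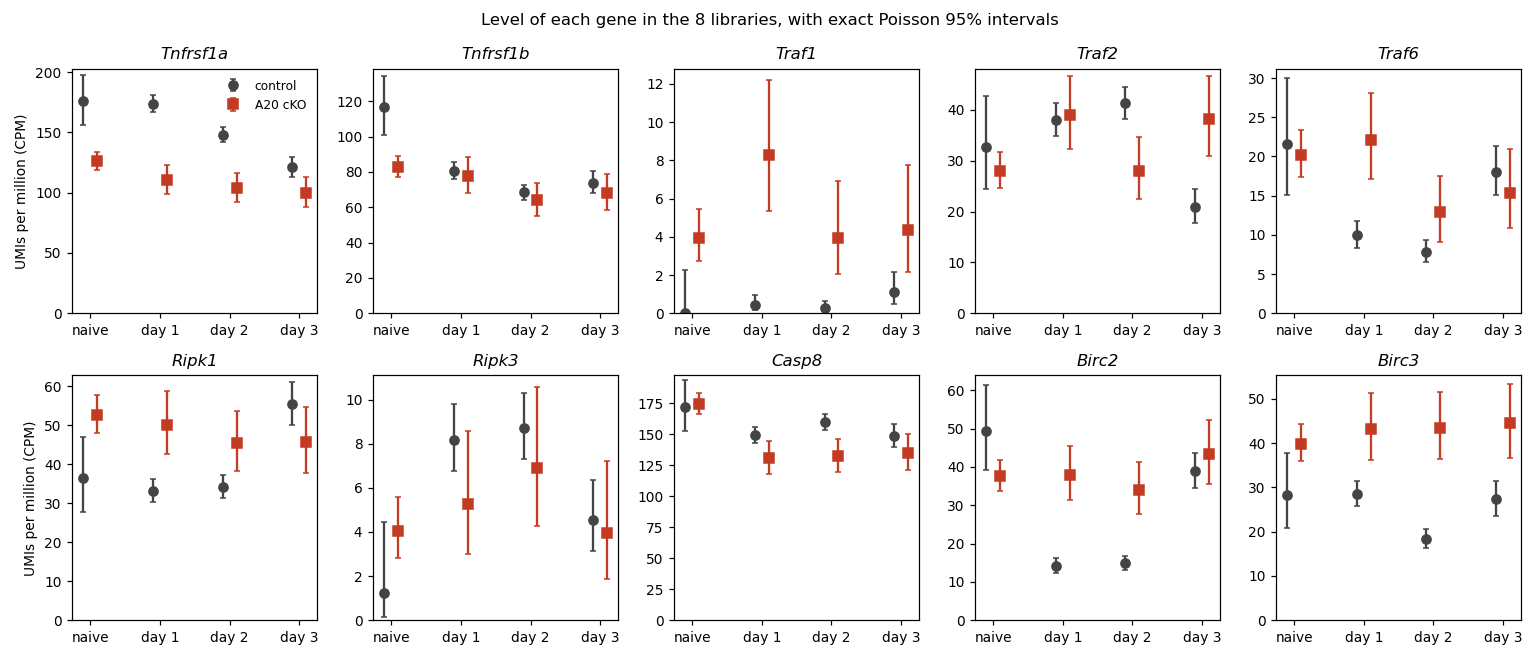
Level of each of the 10 genes in CPM in the 8 libraries, by time point and genotype, with exact Poisson 95% intervals as bars. Traf1 lay between 0 and 1.10 CPM in control and between 3.92 and 8.26 CPM in A20 cKO, and Birc3 between 18.3 and 28.5 CPM and between 39.9 and 44.5 CPM.

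Tnfrsf1a (ENSMUSG00000030341, chromosome 6, 125349362 to 125362484, plus strand, GRCm38, as all positions here) encodes TNFR1, the receptor with the death domain. Tnfrsf1a stood at 176 CPM (156 to 198) in control naive and at 174, 148 and 121 CPM on days 1, 2 and 3. The A20 cKO levels were 126 CPM in the naive library and 110.6, 103.8 and 99.9 CPM (88.0 to 113 for the last) after injury. Each A20 cKO library was lower than the control of its day, but control day 3 lay inside the A20 cKO range. The levels followed the split, with 99.9 to 126 CPM in the 5 linked libraries and 148 to 176 CPM in the other 3. Tnfrsf1a was found in 29.6% to 50.7% of cells, and in 18.4% to 30.8% after cells were thinned to 2000 UMIs. Tnfrsf1b (ENSMUSG00000028599, chromosome 4, 145213463 to 145246870, minus strand) encodes TNFR2, which lacks a death domain and binds TRAF2. Its level was 117 CPM (101 to 134) in control naive and 80.7, 68.3 and 74.0 CPM on days 1, 2 and 3, and in A20 cKO 82.9, 77.9, 63.9 and 68.1 CPM in the same order. Control naive stood above the 7 other libraries, which overlapped between genotypes. The share of cells with a Tnfrsf1b UMI ran from 21.5% to 28.0%, and after thinning from 11.3% to 23.1%.

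Traf1 (ENSMUSG00000026875, chromosome 2, 34941750 to 34961772, minus strand) encodes an adaptor that joins TRAF2 and the cIAPs on TNFR2 and lacks the RING domain of other TRAF proteins. No Traf1 UMI was counted in control naive, for which the floor of 3 UMIs set here for a count of 0 is 1.85 CPM. The days after injury of control animals had 6 UMIs (0.427 CPM, 0.157 to 0.929), 4 UMIs (0.253 CPM, 0.0689 to 0.647) and 8 UMIs (1.10 CPM, 0.474 to 2.16). The A20 cKO libraries had 35 UMIs (3.92 CPM, 2.73 to 5.46) in naive animals, 25 (8.26 CPM, 5.34 to 12.2) on day 1, 12 (3.96 CPM, 2.04 to 6.91) on day 2 and 11 (4.33 CPM, 2.16 to 7.74) on day 3. All control libraries were low and all A20 cKO libraries higher, with A20 cKO day 1 the highest. Traf1 was counted in 77 cells in all, which were 0% to 0.283% of control cells and 0.924% to 1.81% of A20 cKO cells, and after thinning 0% to 0.213% and 0.613% to 1.30%. Of the 34 cells that lacked microglial markers, none of them in the other 3 libraries, 2 held a Traf1 UMI (5.88%, exact 95% interval 0.72 to 19.7). These 34 cells had median depths of 1172.5 to 1551 UMIs, below every library's. Another marker was more frequent in linked libraries: a UMI of a monocyte, border macrophage, neutrophil or lymphocyte gene was found in 11.8% to 25.2% of their cells and in 0.933% to 2.18% of the others, and in 10 of the 77 Traf1 cells (13.0%). With such cells and those lacking microglial markers left out, Traf1 stood at 0, 0.432, 0.195 and 1.12 CPM in control and at 3.81, 5.21, 3.83 and 5.59 CPM in A20 cKO, with day 3 then the highest.

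Traf2 (ENSMUSG00000026942, chromosome 2, 25517982 to 25546940, minus strand) encodes the adaptor that recruits the cIAPs to both receptors. Traf2 reached 32.7, 38.1, 41.3 and 20.9 CPM in control naive and on days 1, 2 and 3, and 27.9, 39.0, 28.0 and 38.2 CPM in A20 cKO. Control day 3 was the lowest library and control day 2 the highest, and the genotypes overlapped. Traf6 (ENSMUSG00000027164, chromosome 2, 101678429 to 101701669, plus strand) encodes the ubiquitin ligase of Toll-like and interleukin-1 receptor signalling, another target of A20. Traf6 stood at 21.6 CPM (15.04 to 30.04) in the control naive library, at 9.96 (8.38 to 11.7) in control day 1, at 7.84 (6.52 to 9.35) in control day 2, and at 18.0 (15.03 to 21.3) in control day 3, and at 20.2, 22.1, 12.9 and 15.3 CPM in A20 cKO. The 2 lowest libraries were control day 1 and day 2, and the other controls lay within the A20 cKO range. Cells with a UMI made up 6.66% to 16.1% for Traf2 and 3.26% to 7.45% for Traf6.

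Ripk1 (ENSMUSG00000021408, chromosome 13, 34002363 to 34037147, plus strand) encodes the kinase that holds both survival and death complexes together. Its exons share 241 bases with Serpinb6a on the opposite strand and 511 with the processed pseudogene Gm17084 on the same strand, and how the counting treated such overlaps is not given in the sources used here. Ripk1 reached 36.4, 33.1, 34.1 and 55.4 CPM in control naive and on days 1, 2 and 3, and 52.7, 50.2, 45.5 and 45.6 CPM in A20 cKO. Its levels followed the split and not the genotype: the 5 linked libraries lay between 45.5 and 55.4 CPM and the other 3 between 33.1 and 36.4 CPM. Ripk1, Tnfrsf1a and Traf1 were the members without overlap between the sides of the split, 2 higher in the linked libraries, where 19.9% of genes were higher throughout, and 1 lower, where 9.68% of genes were lower throughout. Ripk3 (ENSMUSG00000022221, chromosome 14, 55784995 to 55788865, minus strand) encodes the kinase that activates MLKL in necroptosis. Ripk3 had only 2 UMIs in control naive (1.23 CPM, 0.149 to 4.46), 115 on day 1 (8.18 CPM, 6.75 to 9.82), 138 on day 2 (8.72 CPM, 7.33 to 10.3) and 33 on day 3 (4.53 CPM, 3.12 to 6.36). In A20 cKO it had 36, 16, 21 and 10 UMIs, or 4.04, 5.28, 6.92 and 3.93 CPM. Control day 1 and day 2 were the highest libraries and control naive the lowest, and the genotypes overlapped.

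Casp8 (ENSMUSG00000026029, chromosome 1, 58795374 to 58847503, plus strand) encodes caspase-8, which starts apoptosis at death receptors and holds necroptosis back. It varied least of the 10 genes, by 1.34-fold between its lowest and highest library. Casp8 stood at 172, 149, 159.8 and 149 CPM in control naive and on days 1, 2 and 3. The A20 cKO levels were 175, 131, 132 and 135 CPM, so that the naive library was the highest of all and the injured ones the lowest 3. A Casp8 UMI was found in 34.4% to 48.7% of cells.

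Birc2 (ENSMUSG00000057367, chromosome 9, 7818227 to 7837064, minus strand) encodes cIAP1 and Birc3 (ENSMUSG00000032000, chromosome 9, 7848699 to 7873186, minus strand) cIAP2. These ubiquitin ligases put chains on RIPK1, and BIRC3 is itself a well-known NF-kB target. The genes are related in sequence and lie 11634 bases apart, and reads that match both could have been assigned to either or dropped. Birc2 stood at 49.4 CPM (39.1 to 61.4) in control naive, at 14.2 (12.3 to 16.3) in control day 1, at 14.9 (13.0 to 16.9) in control day 2 and at 38.8 (34.4 to 43.6) in control day 3, and at 37.7, 38.0, 33.95 and 43.3 CPM in A20 cKO. Control day 1 and day 2 stood apart as the lowest libraries, and the 6 others lay together. Birc3 stood at 28.4 CPM (20.8 to 37.9) in control naive, at 28.5 (25.7 to 31.4) in control day 1, at 18.3 (16.3 to 20.6) in control day 2 and at 27.3 (23.7 to 31.4) in control day 3. The A20 cKO libraries had 39.9 (35.9 to 44.3), 43.3 (36.2 to 51.3), 43.5 (36.4 to 51.6) and 44.5 CPM (36.6 to 53.5). Every A20 cKO library was higher than every control library, also the linked control day 3. Birc3 was found in 7.22% to 11.3% of control cells and 10.9% to 16.3% of A20 cKO cells, and after thinning in 3.94% to 5.55% and 7.19% to 7.95%. In the 34 cells lacking microglial markers, 0 or 1 cell held a UMI of each member other than Traf1, where 0 of 34 allows a share of up to 10.3% by the exact interval. All these genes are used by many cell types, so no cell type in the libraries is sure to lack them.

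For the pair of genes without overlap between the genotypes, 250 bases before the start given by RefSeq are shown, on the gene's own strand, 5′ to 3′, because both are known as targets of NF-kB. They were read from GRCm38.p6, chr2:34961773-34962022 for Traf1 and chr9:7873171-7873420 for Birc3, both on the minus strand, with 48.0% and 43.6% G or C.
Traf1: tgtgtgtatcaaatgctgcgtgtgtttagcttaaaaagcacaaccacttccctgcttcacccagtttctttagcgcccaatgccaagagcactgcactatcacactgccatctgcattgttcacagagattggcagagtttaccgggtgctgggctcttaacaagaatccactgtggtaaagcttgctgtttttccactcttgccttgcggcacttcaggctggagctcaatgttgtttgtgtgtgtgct
Birc3: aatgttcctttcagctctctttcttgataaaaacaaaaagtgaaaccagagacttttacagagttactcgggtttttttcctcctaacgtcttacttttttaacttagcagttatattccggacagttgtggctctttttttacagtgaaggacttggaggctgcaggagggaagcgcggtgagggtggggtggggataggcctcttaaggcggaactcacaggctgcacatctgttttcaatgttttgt
Windows of 250 bases before to 50 after the start were searched on both strands for 3 letter patterns, in 32851 RefSeq windows that included 12 windows of the 10 members. The NF-kB patterns, GGGA and TTCC or GGG and TTTCC with 2 bases of any kind between, some of whose matches overlap, were found in 1.47% and 1.63% of all windows, in no window of Traf1 or Birc3, and among members only in Traf2, with 1 match of the second starting 31 bases from the gene's start. The interferon pattern, GAAA and GAAA with 2 bases of any kind between, was found in 3.44% of windows. Among members it was in the window of Tnfrsf1b and in 1 of the windows of Ripk1, at −10 and −5 bases from the start. All letters are in lower case because none of the patterns occurs in the stretches shown, which says only that these letters are not in these windows.

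To ask whether the members differed between genotypes across time points, UMI sums of the 8 libraries were fitted with time point and genotype as terms. All 10 members passed the low-count filter. Of 11556 genes tested, 428 were higher (3.7%) and 273 lower (2.36%) in A20 cKO at an adjusted p under 0.05, and of the members 1 was higher, Traf1. Its level was higher in A20 cKO at 4 of 4 times, and the fitted size depends on the prior count, since control naive was at 0. The same order held for 2 of 10 members, Traf1 and Birc3, when libraries were ranked, against 5.19% of genes with all A20 cKO libraries above all controls, and 0 members had all below, as 4.55% of genes did. Tnfrsf1a was lower at 4 of 4 times, with a fitted difference of −0.56 (SE 0.17, adjusted p = 0.0829), and Tnfrsf1b at 4 of 4 times, with −0.27 (adjusted p = 0.264). The remaining members had log2 differences of 0.52 (Birc2), 0.32 (Traf6), 0.23 (Ripk1), −0.06 (Traf2), −0.19 (Ripk3) and −0.23 (Casp8) with adjusted p of 0.242 to 0.897. The median over the members was 0.09 and over all genes −0.00.

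The genotype result leaned on the libraries used. Traf1 missed the threshold in edgeR without the naive pair (adjusted p = 0.0548), without the day 1 pair (0.0926) and without the day 2 pair (0.132). Without the day 3 pair both Traf1 and Tnfrsf1a passed (Tnfrsf1a −0.69, adjusted p = 0.0202, edgeR). That fit held no linked control library, so genotype and split coincide in it and cannot be told apart. With a term for the split, which leaves the genotype difference to rest on control day 3, no member passed in edgeR: Traf1 was at 2.07 (adjusted p = 0.814) and Birc3 at 0.81 (adjusted p = 0.804), and 11 of all genes were higher and 0 lower, with 747 at an unadjusted p under 0.05. Without cells that held markers of other cells, a setting chosen after seeing the data, both Traf1 (3.30, adjusted p = 0.0178) and Birc3 (0.70, adjusted p = 0.0497) passed in edgeR. DESeq2 called 3 members, with Birc3 (0.68, adjusted p = 0.0376) and Tnfrsf1a (−0.57, adjusted p = 0.0252) beside Traf1. Over all alternatives the adjusted p of edgeR or DESeq2 ran from 0.000122 to 0.814 for Traf1, from 0.0347 to 0.804 for Birc3 and from 0.0202 to 0.999 for Tnfrsf1a.

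**Figure D2:**
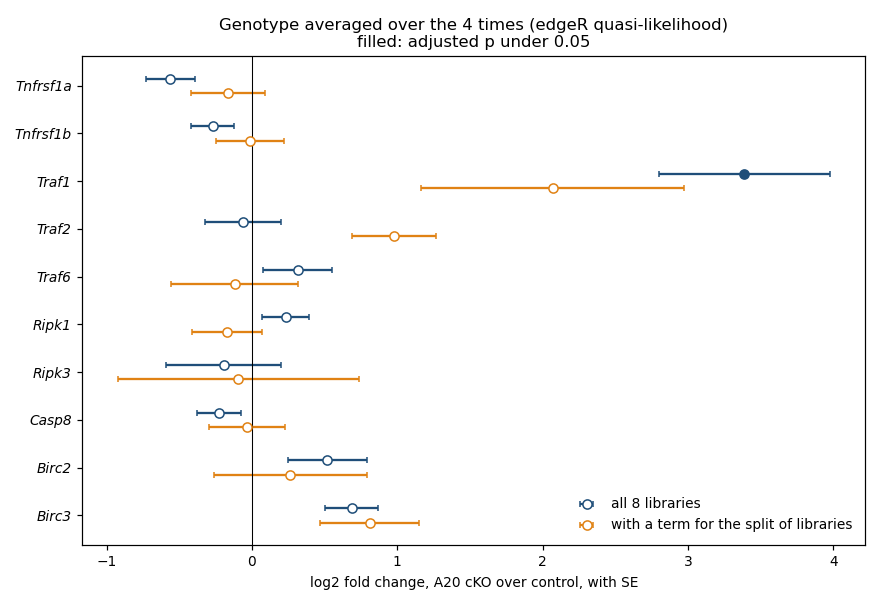
Fitted log2 difference of A20 cKO from control for each member with bars of 1 SE, over all 8 libraries and with a term for the split of libraries, filled where the adjusted p was under 0.05. Traf1 at 3.39 is the one filled point, and Birc3 kept its direction at 0.69 and 0.81.

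The pairs of single libraries show where the genotype differences lay. In a pair, genes with at least 100 UMIs in both libraries together were read, and a difference of at least 2-fold counted as a call. On day 3, when both libraries were linked, 0 of 8 members were called, where 1.86% of genes were higher and 2.4% lower. Traf2 was higher in A20 cKO by 0.87 log2 (95% interval 0.49 to 1.25), Birc3 by 0.71 (0.36 to 1.04) and Traf1, with 11 and 8 UMIs, by 1.96 (0.53 to 3.50). Tnfrsf1a was lower, at −0.27 (−0.48 to −0.07), and the intervals of the 6 remaining members included 0. In naive animals 0 of 8 members were called (7.43% of genes higher, 2.22% lower). Traf1, with 35 UMIs against 0, was at least 2.12-fold higher with control naive set at the floor of 3 UMIs, a bound that leaves out the counting error of the 35 UMIs, Birc3 was higher by 0.48 (0.05 to 0.97) and Ripk1 by 0.52 (0.14 to 0.95), while Tnfrsf1a (−0.48, −0.67 to −0.29), Tnfrsf1b (−0.50, −0.73 to −0.26) and Birc2 (−0.40, −0.75 to −0.02) were lower. These values cross the split. Ripk1, higher in A20 cKO by 0.52, 0.60 and 0.42 in naive animals and on days 1 and 2, was at −0.28 (−0.59 to 0.02) on day 3.

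On day 1, Birc2 and Traf6 were called higher in A20 cKO, 2 of 9 members, where 15.5% of genes were higher and 3.25% lower. Birc2 was higher by 1.42 log2 (1.07 to 1.75) and Traf6 by 1.16 (0.71 to 1.58). The median of all genes stood at 0.20 in this pair, and relative to it Traf6 was at 0.96, under 2-fold, and Birc2 at 1.22. Day 2 had 2 of 9 members called higher, Birc2 by 1.2 (0.84 to 1.53) and Birc3 by 1.25 (0.94 to 1.55), with 10.7% of genes higher and 4.66% lower. Traf1, which had under 100 UMIs in both libraries together, was higher by 4.19 (2.95 to 5.85) on day 1 and by 3.86 (2.25 to 6.06) on day 2. Both days cross the split, and for Birc2 and Traf6 the control libraries of these days were the lowest of all 8, whereas for Birc3 on day 2 both the control was the lowest and the A20 cKO level the second highest.

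**Figure D3:**
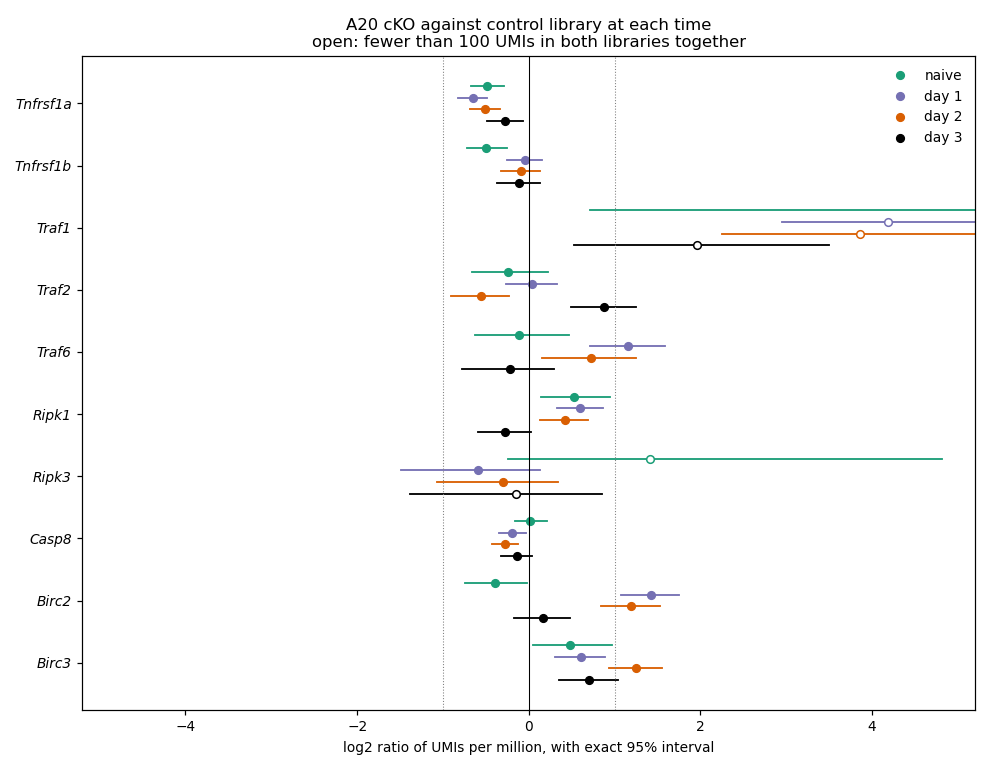
Log2 ratio of A20 cKO to control for each member at each time point with exact conditional 95% intervals, open where both libraries together held fewer than 100 UMIs, with dotted lines at 2-fold. Birc3 lay above 0 at all 4 times (0.48, 0.61, 1.25 and 0.71) and Tnfrsf1a below 0 at all 4 (−0.48, −0.65, −0.51 and −0.27).

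Among control libraries and members with at least 100 UMIs in a pair, Ripk3, Birc2 and Traf6 stood furthest from naive after injury. On day 1, 3 of 9 members were called against control naive: Ripk3 was higher by 2.41 log2 (0.84 to 5.79), Birc2 lower, at −1.80 (−2.18 to −1.40), and Traf6 lower, at −1.13 (−1.66 to −0.54). In this pair 3.82% of genes were higher and 7.25% lower, and the median gene stood at −0.13, relative to which Ripk3, Birc2 and Traf6 were at 2.54, −1.67 and −1.0. On day 2 the same 3 genes were called, Ripk3 at 2.50 (0.94 to 5.88), Birc2 at −1.74 (−2.10 to −1.35) and Traf6 at −1.48 (−2.01 to −0.88), with 5.92% of genes higher and 6.28% lower and a median gene of −0.12. The ratios of Ripk3 rest on 2 UMIs in control naive, and both days share that library. Ripk3 met the minimum of 100 UMIs only through the injured libraries, with 115 and 138 UMIs on days 1 and 2. On day 3, at 33 UMIs (4.53 CPM against 1.23 CPM in control naive), it fell under the minimum and was not read. Tnfrsf1b was lower, on day 1 at −0.54 (−0.76 to −0.30), on day 2 at −0.77 (−1.0 to −0.54), and Birc3 was at −0.64 (−1.08 to −0.15) on day 2. These pairs do not cross the split. On day 3, across the split, 0 of 8 members were called (8.76% of genes higher, 2.32% lower), and Ripk1 was higher by 0.60 (0.21 to 1.03) while Tnfrsf1a, Tnfrsf1b and Traf2 were lower, at −0.54, −0.66 and −0.66.

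**Figure D4:**
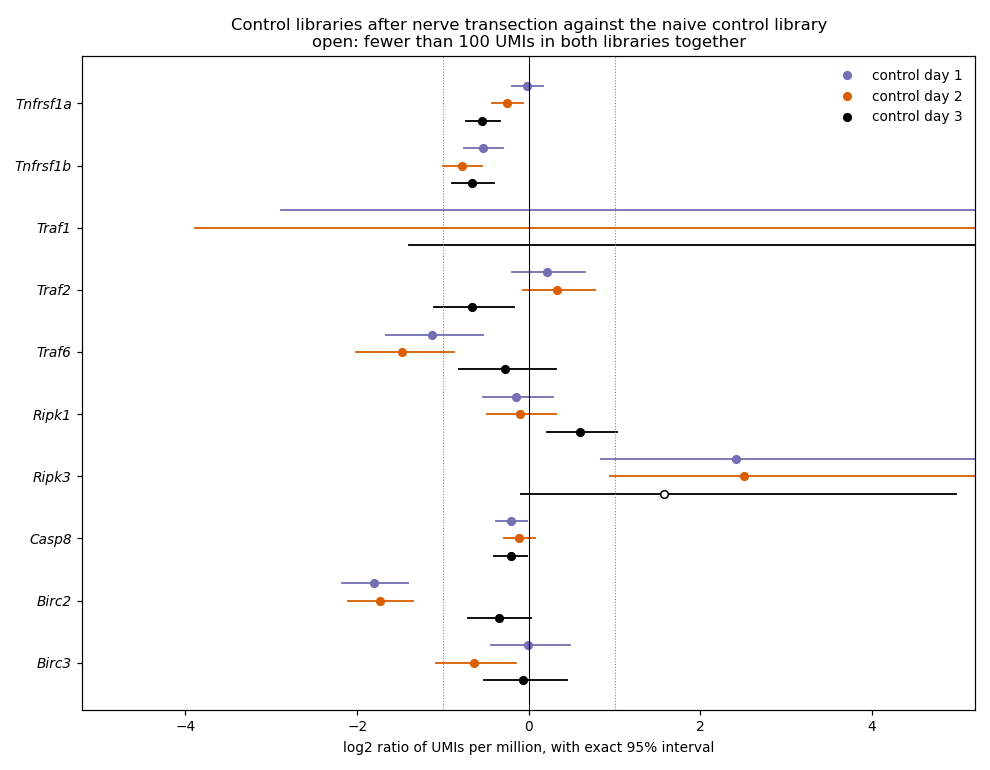
Log2 ratio of control day 1, 2 and 3 to control naive for each member with exact conditional 95% intervals, open where both libraries together held fewer than 100 UMIs, with dotted lines at 2-fold. Birc2 lay at −1.80 and −1.74 on days 1 and 2 and at −0.35 on day 3, and Ripk3 at 2.41 and 2.50 with wide intervals.

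In A20 cKO animals, 0 of 8 members were called against naive on each of days 1, 2 and 3, where 1.56%, 2.86% and 1.92% of genes were higher and 1.39%, 2.65% and 2.0% lower. Casp8 was lower on all 3 days, at −0.42 (−0.58 to −0.26), −0.40 (−0.56 to −0.24) and −0.37 (−0.54 to −0.20). All 3 days share the naive library, in which Casp8 stood highest of all libraries. The CPM of both receptors and of Ripk1 was also lower on all 3 days, but the intervals of Ripk1, and of Tnfrsf1b on day 1, included 0. Tnfrsf1a went from 126 CPM in A20 cKO naive to 110.6, 103.8 and 99.9 CPM, and Tnfrsf1b from 82.9 to 77.9, 63.9 and 68.1 CPM. Ripk1 went from 52.7 to 50.2, 45.5 and 45.6 CPM. Birc2, lowest in control on days 1 and 2, was at 0.02 (−0.31 to 0.32), −0.15 (−0.48 to 0.17) and 0.20 (−0.12 to 0.52) in A20 cKO, and Birc3 at 0.12, 0.13 and 0.16 with intervals that included 0. Traf6 was lower on day 2, at −0.64 (−1.19 to −0.14), and Traf2 higher by 0.48 (0.15 to 0.80) on day 1 and 0.46 (0.10 to 0.80) on day 3. Ripk3, with 16 and 21 UMIs on days 1 and 2 against 36 in naive animals, had too few UMIs to be called. Traf1, also under 100 UMIs, was higher on day 1 by 1.08 (0.27 to 1.85), on 25 and 35 UMIs, but without cells holding markers of other cells it had 13 and 29 UMIs, or 5.21 and 3.81 CPM. Whether the differences from naive differed between the genotypes was not tested. With both genotypes in 1 fit, no member passed on any day against naive in edgeR, where 0.0% of genes passed on days 1 and 2 and on day 3 0.0% were higher and 0.00865% lower. Unadjusted p was under 0.05 for 875, 1441 and 1115 of 11556 genes, and DESeq2, which called 49, 292 and 93 genes, called 0 of the members it tested, which were 7 on day 1, without Traf1, Traf6 and Ripk3, and all 10 on days 2 and 3. Among members the unadjusted p was under 0.05 on day 2 alone, for Traf6, Ripk3 and Tnfrsf1b. The day 1 and day 2 estimates of Birc2 were −0.82 and −0.87 (adjusted p = 0.672 and 0.404, edgeR), of Traf6 −0.40 and −0.96 (0.807 and 0.313) and of Ripk3 1.17 and 1.36 (0.679 and 0.369).

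Other genes of the pathway were read as 55 genes in 5 lists. In the genotype fit in edgeR, 0 of 6 tested TNF superfamily ligands passed, 1 of 8 other receptors was higher and 1 lower, 2 of 15 other adaptors and kinases were higher, 1 of 10 ubiquitin chain writers and erasers was higher, and 2 of 9 death executioners and their brakes were higher. Of all genes tested, 3.7% were higher and 2.36% lower. The 5 largest were Cd40, a receptor that signals through TRAF proteins (3.06, adjusted p = 0.00847), Zbp1, a nucleic acid sensor that engages RIPK3 (3.05, adjusted p = 0.0225), Tnfaip3 itself (1.52, adjusted p = 0.0473), Tank, which binds TRAF proteins (1.17, adjusted p = 0.0186), and Apaf1, the scaffold of the apoptosome (1.13, adjusted p = 0.0484). Levels of Cd40, Tank, Apaf1 and Zbp1 did not overlap between the sides of the split, whereas those of Tnfaip3 did. Of all genes, 19.9% were higher throughout in the linked libraries. Cd40 lay between 7.55 and 29.7 CPM in the linked libraries and between 1.23 and 1.56 CPM in the others. Tank lay between 41.4 and 88.5 CPM and between 25.3 and 40.7 CPM. Control day 3 was the lowest linked library for both Cd40 and Tank. Apaf1 lay between 29.1 and 37.6 CPM in the linked libraries and between 8.46 and 11.9 CPM in the others. Its day 3 levels were 32.0 CPM in control and 31.9 CPM in A20 cKO. Zbp1 lay between 85.2 and 207 CPM in the linked libraries and between 6.83 and 10.5 CPM in the others, with 118 CPM in control day 3. List medians in this fit were 0.53 for ligands, −0.01 for receptors, 0.20 for adaptors and kinases, 0.38 for the ubiquitin list and 0.33 for the death list, beside −0.00 for all genes. In the day 3 pair, which does not cross the split, median log2 ratios were read over genes with at least 100 UMIs. They were 0.44 for ligands, −0.37 for receptors, −0.14 for adaptors and kinases, −0.01 for the ubiquitin list and −0.07 for the death list. The median of all genes in that pair was −0.12. On day 3, within the linked libraries, Tnf was at 124 CPM in A20 cKO and 34.9 in control (1.83 log2, 1.58 to 2.07), Tnfaip3 at 67.7 and 20.3 (1.74, 1.41 to 2.06) and Cd40 at 24.0 and 7.55 (1.67, 1.12 to 2.22). In control animals the ligand gene Tnf was higher by 3.22 (2.70 to 3.85) on day 1, at 158 against 16.7 CPM, and by 1.14 (0.61 to 1.78) on day 2, and Tnfaip3 was lower, at −1.83 (−2.36 to −1.25), on day 2.

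Within libraries, cells with a UMI of Tnf or Tnfaip3 were compared with cells without, after thinning all cells to 2000 UMIs, so that the libraries served as replicates. Birc3 was higher in cells with Tnfaip3, by 0.77 log2 (SE 0.20, adjusted p = 0.0315, edgeR, 8 libraries), and in 7 of 8 libraries. In that comparison 0.523% of 9181 genes were higher and 0.0327% lower, 8 members were tested, and Birc3 was the 1 called. Cells with Tnfaip3 against cells without held Birc3 at 65.2 and 28.2 CPM in control naive, 37.9 and 28.2 on day 1, 30.0 and 20.1 on day 2, and 65.8 and 26.1 on day 3. In A20 cKO the values were 80.9 and 35.7 CPM in naive animals, 25.4 and 42.8 on day 1, 48.1 and 38.3 on day 2, and 76.9 and 39.1 on day 3. A20 cKO day 1 was the exception, and the classes were small, with 23 to 204 cells and 3 to 33 Birc3 UMIs per library. The call was lost in 8 of 17 alternatives: without control day 3 (adjusted p = 0.210, edgeR), without A20 cKO naive (0.709), without A20 cKO day 3 (0.105), without the low-count filter (0.101), after thinning to 1000 UMIs (0.675), in control alone (0.921), in A20 cKO alone (0.330) and in DESeq2 (0.375). The estimate stayed between 0.57 and 0.92 over all alternatives, and its difference between genotypes was −0.03 (SE 0.39, adjusted p = 0.999, edgeR).

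**Figure D5:**
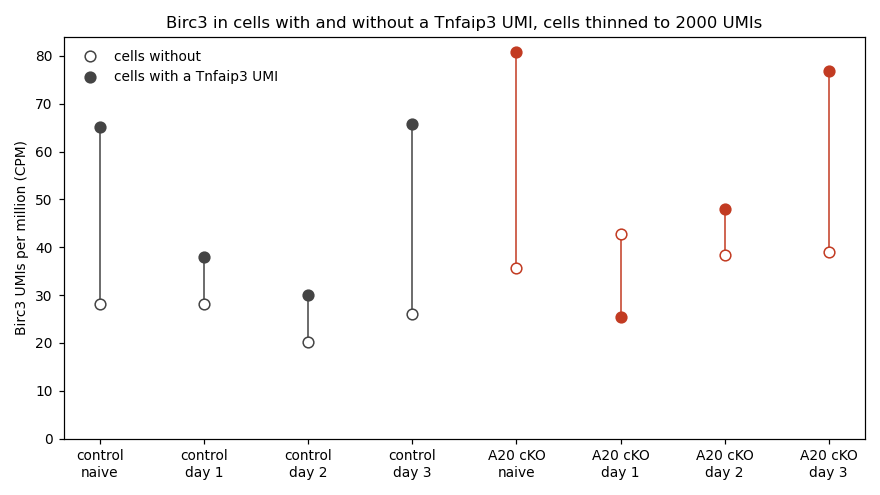
Birc3 level in CPM in cells with and without a Tnfaip3 UMI in each of the 8 libraries, cells thinned to 2000 UMIs, with the points of a library joined. The level was higher in cells with Tnfaip3 in 7 libraries, for example 65.8 against 26.1 CPM in control day 3 and 80.9 against 35.7 CPM in A20 cKO naive, and lower in A20 cKO day 1 (25.4 against 42.8 CPM).

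No member passed in cells with a Tnf UMI (7 libraries, 1.09% of 9889 genes higher and 0.172% lower in edgeR, 764 at an unadjusted p under 0.05). DESeq2 gave an adjusted p for 4 members, not for Traf1 or Birc3, and called 0 of them. Traf1 was at 1.85 (adjusted p = 0.262, edgeR) and Birc3 at 0.45 (adjusted p = 0.441, edgeR). The result for Traf1 depended on the thinning. It passed in 3 of 14 alternatives, which were thinning to 1000 UMIs, thinning with another seed and no thinning. Over all 14 its log2 values were 1.62 to 3.31 (adjusted p = 0.000328 to 0.696, edgeR or DESeq2). Birc3 passed in 2 of 15 alternatives. Among A20 cKO libraries alone Birc3 was at 0.96 (adjusted p = 0.0150, edgeR), with 73.0 and 36.7 CPM in naive cells with and without Tnf, 80.5 and 37.0 on day 1, 21.7 and 40.5 on day 2 and 97.2 and 35.4 on day 3. In control the same values were 58.8 and 28.9 CPM in the naive library, whose 17 Tnf cells kept it out of the fit, 26.8 and 29.3 on day 1, 16.2 and 20.5 on day 2 and 45.0 and 26.7 on day 3. The difference of this effect between genotypes was 0.99 (SE 0.33, adjusted p = 0.503, edgeR) and did not pass. Mitotic cells, defined by UMIs of 3 or more among 18 core G2/M genes, were compared with cells holding none in 6 libraries. There 9.48% of genes were higher and 7.53% lower, and 0 of 8 tested members passed, with Tnfrsf1a at −0.39 (adjusted p = 0.0789, edgeR) and Birc3 at −0.62 (adjusted p = 0.166). Unadjusted p was under 0.05 for 2636 of 9601 genes, these 2 members among them, and DESeq2 called no member.

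Interferon-responsive cells, with UMIs of at least 3 of 10 interferon genes, were compared with cells holding none in 7 libraries, where 5.71% of 8796 genes were higher and 3.17% lower. In edgeR 0 of 8 tested members passed, with 1618 genes at an unadjusted p under 0.05 and no member called by DESeq2, and Birc3 was at 0.57 (SE 0.21, adjusted p = 0.0677). Traf1 was too rare for the low-count filter of this fit. In A20 cKO naive 13 Traf1 UMIs lay in 622 interferon-responsive cells and 0 in 954 cells without interferon genes, and on day 1 the counts were 6 UMIs in 230 cells and 1 in 274. On day 2 they were 2 UMIs in 330 cells and 1 in 43, and on day 3 7 in 306 and 0 in 27. In the naive library all Traf1 UMIs of these 2 classes thus lay in the responsive class, and on days 2 and 3 the class without interferon genes was small. Traf1 was tested in 3 alternatives of the fit, with log2 values of 2.67 to 3.27, and passed in 2 of them (adjusted p = 0.000227 to 0.0787, edgeR or DESeq2). In the fit as designed, the pathway genes Zbp1 (3.67), Cd40 (3.25), Tnfsf10, a death ligand (2.50), and Tnf (1.23) were higher in the responsive cells, while Otulin, which removes linear ubiquitin chains, was lower by 1.10, at adjusted p of 1.24e-95 to 0.000927 (edgeR). Only the 10 genes that define the class were left out. Any other gene expressed together with them is therefore higher in this class by its definition, and these values are no separate evidence about the pathway.

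Birc3, Birc2 and Traf6 varied by at least 2-fold over the libraries and had enough UMIs in each for a comparison of patterns with 7575 genes. By Pearson correlation of log2 CPM over the 8 libraries, a description of libraries that also differ in split and depth, Birc3 was most like Tnfaip3 (0.978), Srpr (0.967) and Orc4 (0.965). Birc2 was most like Plekhm3 (0.991), Nek9 (0.987) and Rnaset2b (0.984), and Traf6 most like Arl14ep (0.983), Ints8 (0.980) and Eme2 (0.979).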

How the data were processed

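Libraries were made by the authors with 10x Genomics 3′ chemistry (kit v3 or v3.1, since methods and labels differ), and Cell Ranger 2.1.1 and mm10 are named in the submitters' processing notes. The deposited matrices hold raw UMI counts per gene and barcode, without normalization. Cells with at least 1000 UMIs, at least 500 genes and at most 10% mitochondrial UMIs were kept. The authors gated out doublets in the sort, and no doublet caller was run, so droplets with more than 1 cell may remain. UMIs were summed per library, in place of cells as replicates, and given as CPM. For log2 ratios 0.5 UMIs were added. Intervals at 95% are exact Poisson, Clopper-Pearson or conditional and cover counting error only, as does the limit of 3 UMIs for a count of 0. Fits across all genes used edgeR 4.0.16 (glmQLFit, TMM, filterByExpr, Benjamini-Hochberg) in R 4.3.3, tested on simulated data, and SEs were derived from the F statistic. The genotype fit had terms for time and genotype and 3 residual degrees of freedom. Fits within libraries used cells thinned to 2000 UMIs, libraries with at least 20 cells in both classes, and library as a block. The genes defining a class were left out of its test. Positions are from GENCODE M21 on GRCm38.

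The members, gene lists, markers and tests were chosen with earlier results of these data known. All 10 members are named for their levels and in the genotype fit. The pairs and the fits within libraries name the members called and some others, so a member not named there was not called. At most 5 other pathway genes are named per comparison, those with the largest values among those called, and levels over the libraries are added for some of them. Alternatives were RLE size factors, DESeq2 1.42.0, no low-count filter, all barcodes, a stricter cell filter (2000 UMIs, 1000 genes, 5% mitochondrial UMIs), shared barcodes or mitotic cells left out, a term for the split, other thinning, 1 genotype alone, leaving out libraries or time points, and 1.5-fold or 50 UMIs for pairs. Leaving out cells with markers of other cells was added after seeing the data.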

Additional observations from a re-analysis of the deposited data

How the results depend on the processing

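No paired analysis was possible because the labels give no replicate numbers and each group has 1 library; the time point served as the block of the genotype fit. In that fit 701 genes passed, against 1413 in DESeq2, 1535 without a low-count filter, 11 with a term for the split and 58 to 2593 when 1 time point was left out. Of the members 1 passed, against 3 in DESeq2, 2 without a filter, 2 without cells holding markers of other cells, 0 with the term for the split and 0 to 2 without 1 time point. For time, 0, 0 and 1 genes passed on days 1, 2 and 3, against 49, 292 and 93 in DESeq2, 19, 276 and 158 without a filter, and 0 on day 3 with the split. In cells with Tnf, 125 genes passed, against 47 in DESeq2, 50 after thinning to 1000 UMIs, 561 without thinning, 19 in control alone and 55 (without A20 cKO naive) to 141 when 1 library was left out. Members passing there were 0, against 1 after thinning to 1000 UMIs or with another seed, 2 without thinning and 1 in A20 cKO alone. In cells with Tnfaip3, 51 genes passed, against 81 with RLE, 13 in DESeq2, 10 after thinning to 1000 UMIs, 208 without thinning, 4 in control alone and 19 (without A20 cKO naive) to 61 when 1 library was left out. Members passing were 1, against 0 in DESeq2, without a filter, after thinning to 1000 UMIs and in either genotype alone, 2 without thinning, and 0 to 1 without 1 library. In mitotic cells 1633 genes passed, against 927 after thinning to 1000 UMIs, 2793 without thinning, 829 in control alone and 1075 in A20 cKO alone. In interferon-responsive cells 781 passed, against 381 in DESeq2, 1405 without thinning, 145 in control alone and 380 (without A20 cKO naive) to 805 when 1 library was left out, with 0 members, against 1 without a filter, after thinning to 1000 UMIs, without thinning, and without A20 cKO day 3.

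In pairs, a call at 1.5-fold gave 5 members in place of 3 on control day 2, 3 in place of 0 on control day 3, 1 in place of 0 on A20 cKO day 2, and between genotypes 6 in place of 2 on day 1 and 2 in place of 0 on day 3. A minimum of 50 UMIs added 1 on A20 cKO day 1, and counting from the median gene left 1 of 2 between genotypes on day 1. The causes of these changes were not tested. Of 926 fitted member values under alternatives, 902 kept their side of the threshold, of which 94 were uncalled values that changed sign, and 12 gained and 12 lost a call. Of the single-library ratios under alternatives, 493 stayed within their interval and 3 moved beyond it. Depth limits Traf1 and Ripk3 most, at 0 and 2 UMIs in control naive.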
